A study of Mus musculus with 8 samples.

Results

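The genes that write, erase and read histone acetylation were followed in 4T1 cells, a mouse mammary carcinoma line, after acetate treatment. The 36 genes were taken from a list of names. No measured value entered the rule, but the list was chosen with earlier results of these data known. They comprised 14 writers (histone acetyltransferases and acetylating coactivators), 11 histone deacetylases, 7 sirtuins and 4 bromodomain readers, and all 36 were found among the 20189 genes of the table. Cells of wild-type genotype received 5 mM acetate, or water as the vehicle, over 48 hours in DMEM with serum. There were 4 acetate and 4 vehicle libraries, in 4 pairs of the same number. The comparison asks which genes change expression when more acetate is supplied, and 1 cell line stands for the tumour here.

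Writers move an acetyl group from acetyl-CoA onto lysines of histone tails, which loosens chromatin and makes a docking site for bromodomains. Zinc-dependent deacetylases (Hdac genes) take the group off again, and free acetate is the product. Sirtuins also take it off, but they consume NAD and pass the group to ADP-ribose. Acetate that enters the cell can be turned into acetyl-CoA, the substrate of the writers.

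Values are normalised reads, with every library brought to a total of 20000000, and 1 read was worth 0.682 to 1.01 units. Library depth, in units of 1000000 reads, ran from 19.9 to 29.3. Log2 changes are acetate minus vehicle on log2(value + 1), which understates the change of low genes, and tests are from limma with the replicate number as a block, adjusted over all genes (threshold 0.05). In bulk RNA, fewer cells of a kind and less RNA per cell cannot be told apart. The epithelial markers Epcam, Krt8, Krt18, Krt19, Cdh1, Krt7 and Cldn4 were all present, with sums of 59342 to 81575 units in vehicle and 64833 to 83916 in acetate, and Krt19, Cldn4 and Cdh1 rose (log2 changes of 0.40, 0.30 and 0.15). Of markers of other cells, 3 of 6 for leukocytes were analysed (sums of 93.1 to 201 in vehicle and 100.5 to 212 in acetate), 3 of 4 for endothelium (2.44 to 6.14 and 3.77 to 7.06) and 3 of 5 for fibroblasts (229 to 1523 and 394 to 1998). Csf1r, Pdgfra and Pdgfrb among these rose, while Ptprc, which defines leukocytes, lay between 0.682 and 3.02 units, and the part of either kind of marker in the results below was not tested.

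Among the 36 genes, 5 passed the threshold: Hdac1, Hdac5, Hdac7 and Hdac11 rose with acetate and Sirt1 fell. No writer and no reader passed. The called share was 13.9%, beside 8.64% of all genes tested (5.99% higher and 2.65% lower) and 12.9% (8.85% higher and 4% lower) of genes with a mean of at least 10 units, a level that 35 of the 36 reached. The genes of histone acetylation were thus called about as often as other expressed genes. Over all genes 1209 calls were higher and 535 lower, and with median-of-ratios scaling 1000 and 821. Acetate was higher in 4 of 4 pairs for 9 of the 36 genes and lower for 9. Among all genes these shares were 16.7% and 11.4%, so agreement of the 4 pairs was common. Of the 13292 genes with a mean of at least 10 units, 2866 were higher and 2048 lower in 4 of 4. By class, the calls were 4 of 11 deacetylases, 1 of 7 sirtuins, 0 of 14 writers and 0 of 4 readers. The edgeR fit on recovered reads also called Sirt4 higher and Ep300, Kat2a, Kat14 and Brd7 lower. Without the block no gene of the table passed, whether a member or not. In that fit 353 genes and 1 member, Hdac1, had an unadjusted p under 0.05.

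**Figure D1:**
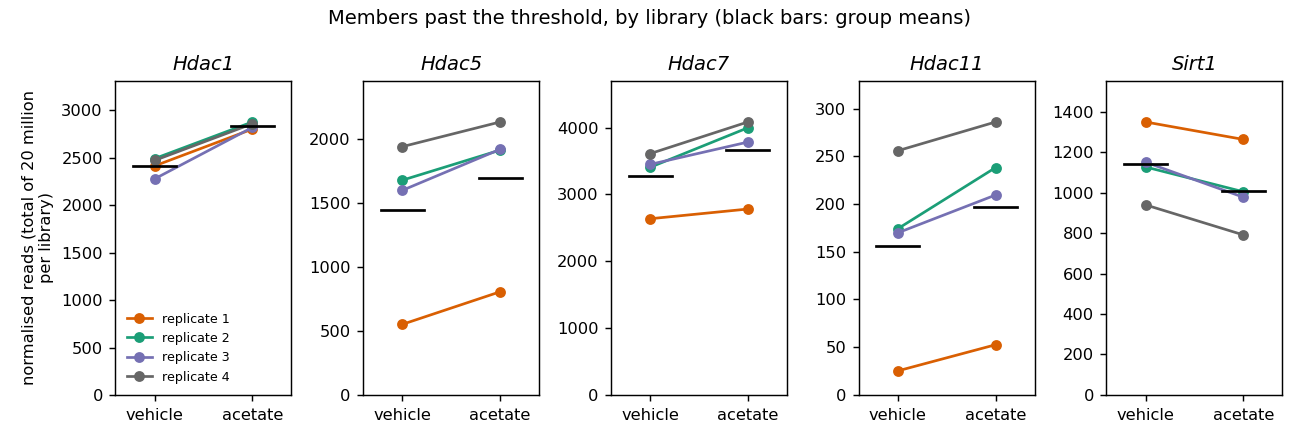
Normalised reads (y axes, from 0) of the 5 genes past the threshold in each vehicle and acetate library, with a line joining the libraries of one replicate number and black bars at the group means. Each line rises for the 4 Hdac genes and falls for Sirt1, and the groups are apart only for Hdac1, while replicate 1 lies far below the others for Hdac5 and Hdac11.

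Hdac1 is a class I deacetylase and, with its close relative Hdac2, forms the catalytic core of the NuRD, Sin3 and CoREST corepressor complexes. Its gene (ENSMUSG00000028800) lies on chromosome 4, 129516104 to 129542713 (GRCm38). Hdac1 had 2415, 2492, 2278 and 2473 normalised reads in vehicle libraries 1 to 4 and 2803, 2879, 2821 and 2859.8 in the acetate libraries. Every acetate library was above every vehicle library. Groups without overlap, in either direction, were seen for 1.65% of all genes. The means were 2414 ± 96.7 and 2841 ± 34.7 (SD, n = 4), a 1.18-fold difference. The log2 change was 0.24 with an SE of 0.03 (blocked limma, adjusted p 9.52e-04), and the 4 pairs gave 0.22, 0.21, 0.31 and 0.21. Treatment held 90.8% of the sum of squares of Hdac1 over the 8 libraries and replicate number 6.29%. By this share 16 genes of the table were above it, while by the p of the blocked limma fit it ranked 128 of 20189. Hdac1 passed with each of the 4 pairs left out in turn.

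A processed pseudogene of Hdac1, Gm10093 (chromosome 17, 78491582 to 78493025), is 99.4% identical to an Hdac1 transcript over its 1444 bases, so reads may be shared between them. Gm10093 had 370 to 406 units in vehicle and 417 to 449 in acetate, or 14.7% to 16.3% of the Hdac1 value in the same library. The pseudogene was higher in 4 of 4 pairs (log2 change 0.17, adjusted p 0.0615). With both added together, the log2 change was 0.23 (adjusted p 9.44e-04).

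Hdac2 did not move with its relative. It had 3420.5 to 4225 normalised reads in vehicle and 3394 to 4297 in acetate, and its log2 change of 0.01 had a 95% interval from -0.05 to 0.06. That change, close to 0, turned negative with median-of-ratios or quantile scaling, in edgeR and in DESeq2. Hdac3, the class I enzyme of the NCoR and SMRT complexes, was higher in 4 of 4 pairs but did not pass (log2 change 0.07, interval 0.01 to 0.14, adjusted p 0.154). Hdac8, the class I enzyme that acts on cohesin, had 113 to 172 normalised reads in vehicle and 112 to 166 in acetate (log2 change -0.01).

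Class IIa deacetylases have little catalytic activity of their own; they shuttle between cytoplasm and nucleus and repress the MEF2 transcription factors. Of the 4 genes of this class, Hdac5 and Hdac7 rose, Hdac4 did not pass and Hdac9 had too few reads. Hdac5 (ENSMUSG00000008855, chromosome 11, 102194432 to 102230166) had 552, 1679.8, 1600.4 and 1942 normalised reads in vehicle libraries 1 to 4 and 807, 1915, 1921 and 2135 in the acetate libraries. Both libraries of replicate 1 were far below all others, and the groups overlapped, but each acetate library was above its partner. The means were 1444 ± 612 and 1695 ± 601 (SD, n = 4), with a log2 change of 0.28 and an SE of 0.06 (blocked limma, adjusted p 0.0102). The pairs gave 0.55, 0.19, 0.26 and 0.14, the largest where the level was lowest. Hdac5 did not pass without replicate 3 (adjusted p 0.102) or replicate 4 (0.0527).

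Hdac7 (chromosome 15, 97792664 to 97844502) had 2637, 3406, 3450.1 and 3611 normalised reads in vehicle libraries 1 to 4 and 2782, 3998, 3784 and 4085 in the acetate libraries. It was higher in 4 of 4 pairs, and replicate 1 was again lowest in both groups. The log2 change of Hdac7 was 0.15 (SE 0.03) and passed (blocked limma, adjusted p 0.0104), and the call was lost without replicate 2 (0.0931), 3 (0.0798) or 4 (0.0846). Hdac4, of the same class, was lower in 4 of 4 pairs and did not pass (log2 change -0.08, interval -0.16 to 0.01). Hdac9 had 0 to 3 reads in any library, too few for a change to be detectable at this depth.

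Hdac11, the sole class IV enzyme and a remover of fatty acyl groups as well as acetyl groups, had the largest log2 change among the genes with a mean of at least 10 units, but not without replicate 1, where it was 0.30 (adjusted p 0.0415) and that of Sirt4 was 0.38. Hdac11 (chromosome 6, 91156665 to 91174692) had 25.2, 174, 169.9 and 256 normalised reads in vehicle libraries 1 to 4 and 52.6, 238, 209.5 and 286 in the acetate libraries. Replicate 1 was the lowest in both groups, and every acetate library was above its partner. The log2 change was 0.49 with an SE of 0.12 (blocked limma, adjusted p 0.0340). Its pairs gave 1.03, 0.45, 0.30 and 0.16, so pair 1, at 33 reads in the vehicle library, weighed most in the mean. Without replicate 2, 3 or 4 the adjusted p was 0.132, 0.135 and 0.0942, and it was 0.0645 with a pseudocount of 0.1 and 0.0636 in DESeq2. An unspliced transcript on the other strand, Gm44002, shares 594 exonic bases with Hdac11, and its reads cannot be separated if counting ignored strand. Of the class IIb enzymes, Hdac6, the tubulin deacetylase, ran from 618 to 1113 units in vehicle and from 643 to 1092 in acetate, and Hdac10, a polyamine deacetylase, from 147 to 187 and from 155 to 182. Their log2 changes were 0.01 and -0.01, and that of Hdac6 turned negative with median-of-ratios scaling.

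Sirt1, the nuclear sirtuin that deacetylates histones and transcription factors such as p53, was the one gene of the 36 called lower in the main fit. Sirt1 (chromosome 10, 63319005 to 63381704) had 1349.8, 1127, 1151 and 939.8 normalised reads in vehicle libraries 1 to 4 and 1264, 1005, 978 and 791 in the acetate libraries. Each acetate library was below its partner, while the groups overlapped because the level differed between replicate numbers. The means were 1142 ± 168 and 1009 ± 194 (SD, n = 4), a 0.879-fold level, and the log2 change was -0.19 with an SE of 0.04 (blocked limma, adjusted p 0.0114). The pairs gave -0.10, -0.17, -0.24 and -0.25. Its call was lost without replicate 2 (adjusted p 0.0618), 3 (0.103) or 4 (0.0857).

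Other sirtuins went either way and none passed. Sirt4, a mitochondrial sirtuin, had 84.7, 116, 139.7 and 132 normalised reads in vehicle libraries 1 to 4 and 86.3, 168, 176 and 159 in the acetate libraries. Acetate was higher in 4 of 4 pairs, though by only 0.03 in pair 1. The log2 change of Sirt4 was 0.29 with an SE of 0.10 (blocked limma, adjusted p 0.0939), and it passed without replicate 1 (0.38, adjusted p 0.0329). Sirt5, the mitochondrial desuccinylase, had 147, 234, 266 and 214 normalised reads in vehicle libraries 1 to 4 and 123, 208, 234 and 224 in the acetate libraries. It was lower in pairs 1 to 3 and higher in pair 4 (log2 change -0.14, adjusted p 0.306). Sirt2, the cytoplasmic tubulin deacetylase, changed by 0.12 (adjusted p 0.106). The chromatin sirtuins Sirt6 and Sirt7 changed by 0.05 and -0.04, with intervals from -0.04 to 0.15 and from -0.17 to 0.09. Sirt3, the main deacetylase of mitochondria, had 109.9 to 189 units in vehicle and 111 to 200.3 in acetate (log2 change 0.01, or -0.05 with quantile scaling).

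RefSeq promoter windows (GRCm38.p6, 250 bases before to 50 after a transcription start) were read for the genes that changed, since 3 of them rose together and 1 fell. Of the 36 genes 30 had a window, and Hdac1 was among the 6 without one. Hdac7 had 4 windows, and the one at its outermost start is shown. The windows lie at chr11:102230123-102230422 (minus strand), chr15:97844453-97844752 (minus), chr6:91156565-91156864 (plus) and chr10:63338986-63339285 (minus), and are written 5′ to 3′ on the strand of the gene. Capitals mark matches on either strand to the GC box (GGGCGG), the CCAAT box (CCAAT), the TATA box (TATAAA), the E-box (CACGTG) or the cyclic AMP response element (TGACGTCA), and matches of one motif may overlap.
Hdac5: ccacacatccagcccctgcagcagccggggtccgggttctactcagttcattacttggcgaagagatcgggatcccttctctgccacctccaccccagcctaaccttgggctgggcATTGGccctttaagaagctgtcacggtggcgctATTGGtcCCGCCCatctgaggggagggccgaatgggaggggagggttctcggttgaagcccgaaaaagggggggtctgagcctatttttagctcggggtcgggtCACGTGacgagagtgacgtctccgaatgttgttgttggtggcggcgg
Hdac7: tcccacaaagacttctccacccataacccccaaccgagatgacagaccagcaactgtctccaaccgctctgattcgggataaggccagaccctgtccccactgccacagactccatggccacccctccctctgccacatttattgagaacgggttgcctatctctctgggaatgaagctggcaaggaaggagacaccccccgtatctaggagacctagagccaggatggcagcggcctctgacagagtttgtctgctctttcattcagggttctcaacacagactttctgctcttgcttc
Hdac11: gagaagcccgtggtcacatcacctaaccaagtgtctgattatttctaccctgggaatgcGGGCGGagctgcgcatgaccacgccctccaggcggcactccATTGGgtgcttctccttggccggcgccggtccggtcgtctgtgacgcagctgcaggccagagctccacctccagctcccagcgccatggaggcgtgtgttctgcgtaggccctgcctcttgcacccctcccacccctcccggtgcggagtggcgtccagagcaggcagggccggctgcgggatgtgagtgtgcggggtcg
Sirt1: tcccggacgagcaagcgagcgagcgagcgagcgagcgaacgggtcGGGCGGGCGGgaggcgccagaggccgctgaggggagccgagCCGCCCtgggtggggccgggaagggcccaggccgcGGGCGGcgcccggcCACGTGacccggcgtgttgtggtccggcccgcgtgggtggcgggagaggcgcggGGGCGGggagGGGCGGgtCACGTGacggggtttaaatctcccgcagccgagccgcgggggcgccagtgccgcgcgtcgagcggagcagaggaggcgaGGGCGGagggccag
The Sirt1 window was 79.0% G and C, beside a median of 52.7% over all 32851 windows, and held 7 GC boxes and 2 E-boxes. Hdac5 and Hdac11 were at 60.7% and 66.7%, with 1 GC box each, and 2 CCAAT boxes in Hdac5 and 1 in Hdac11. Hdac5 also held 1 E-box. The Hdac7 window (54.7%) held none of the 5 motifs. A GC box was found in 35.7% of all windows, a CCAAT box in 37.4%, a TATA box in 13.6%, an E-box in 7.15% and the cyclic AMP element in 1.79%, and the last was in none of the 4. The matches describe the letters of these windows only.

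None of the 14 writers passed, and 11 of them had a log2 change below 0 (12 with median-of-ratios scaling). The median change of the writers was -0.06, beside 0.02 over all genes, and it was -0.03, -0.06, -0.05 and -0.04 in pairs 1 to 4. Their changes were small and ran from -0.15 to 0.09. Ep300 and Crebbp, the paired coactivators that acetylate lysine 27 of histone H3, had log2 changes of -0.10 (interval -0.17 to -0.02, adjusted p 0.118) and -0.09 (-0.17 to -0.01, adjusted p 0.189). Ep300 ran from 2031 to 2394 normalised reads in vehicle and from 1839 to 2356 in acetate, and it was lower in 3 of 4 pairs. Crebbp ran from 856 to 921 and from 802 to 876, and it was lower in 4 of 4.

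Kat2a, the catalytic subunit of the SAGA and ATAC coactivators, was lower in 4 of 4 pairs and just missed the threshold (log2 change -0.10, adjusted p 0.0536). It passed with median-of-ratios scaling (adjusted p 0.0268) and in edgeR on recovered reads (0.0122). Kat14, a further subunit of ATAC, had 1049.7, 821, 836 and 649 normalised reads in vehicle libraries 1 to 4 and 941, 741, 826 and 533 in the acetate libraries. Each acetate library was below its partner, by only 0.02 in pair 3. The log2 change of Kat14 was -0.15 with an SE of 0.05 (blocked limma, adjusted p 0.0664), and it too passed with median-of-ratios scaling (0.0456) and in edgeR (0.0178). The close relative of Kat2a, Kat2b, had 555 to 994 units in vehicle and 575 to 1077 in acetate (log2 change 0.02, negative with median-of-ratios scaling).

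The MYST enzymes Kat5, Kat6a, Kat6b, Kat7 and Kat8 changed by -0.02, -0.04, -0.12, -0.04 and -0.08. Kat6b, a writer of histone H3 acetylation, was lower in 4 of 4 pairs (adjusted p 0.177). Kat5 shares 426 exonic bases with Rnaseh2c on the other strand, and Sirt3 shares 418 with Ric8a and 342 with Psmd13. Kat8, Ncoa3, Hdac7, Sirt2 and Brd2 share 29 to 360 bases with a gene on the other strand, and Sirt7 shares 124 with Mafg on the same strand, which counting by strand would not resolve. These values are uncertain to that extent. Hat1, which acetylates new histone H4 before it joins chromatin, had 1881 to 2251 units in vehicle and 1766 to 2215 in acetate (log2 change -0.02). Of the nuclear receptor coactivators, Ncoa1 and Ncoa3 changed by 0.09 each and Ncoa2 by -0.09. Ncoa3 had 915, 909.9, 849 and 839 normalised reads in vehicle libraries 1 to 4 and 922, 946, 915 and 947 in the acetate libraries. The groups of Ncoa3 did not overlap, by a narrow margin, and it did not pass (adjusted p 0.216).

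The bromodomain readers bind acetylated tails. Brd2 and Brd3 belong to the BET family, which brings the elongation machinery to acetylated promoters, and Brd7 and Brd9 are subunits of SWI/SNF remodellers. None passed, and their median log2 change was -0.02. Brd2 had 6047 to 8235 normalised reads in vehicle and 5792 to 8372 in acetate (log2 change -0.05, interval -0.10 to 0.01). Brd3 was higher in 4 of 4 pairs by 0.06 (adjusted p 0.304), and Brd7 was lower in 4 of 4 by 0.08 (log2 change -0.08, adjusted p 0.136). Brd9 was lower in pairs 1 and 2 (-0.12 and -0.08) and higher in pairs 3 and 4 (0.11 and 0.15), which left a mean of 0.01 whose sign turned under median-of-ratios scaling.

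**Figure D2:**
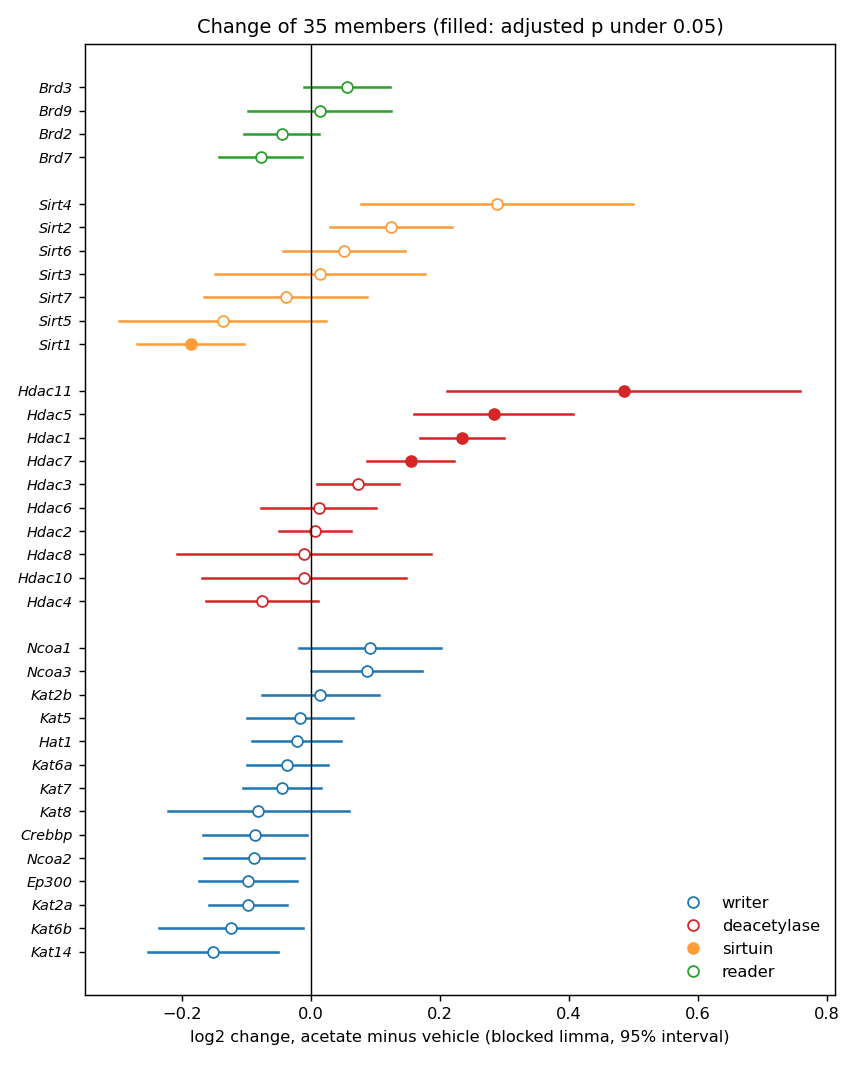
Log2 change (acetate minus vehicle, x axis) with its 95% interval from blocked limma for 35 genes, by class, leaving out Hdac9 for its 0 to 3 reads. Filled points are the 5 genes past the threshold, 4 deacetylases to the right of 0 and Sirt1 to the left, and most writers lie a little to the left of 0.

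The 11 deacetylases had a median log2 change of 0.07, with 0.08, 0.19, 0.10 and 0.07 in pairs 1 to 4, and 8 of them were above 0 (6 with median-of-ratios scaling and 7 with quantile scaling). Without Hdac9, a choice made after seeing the data for its 0 to 3 reads, the median was 0.04, with 0.07, 0.11, 0.10 and 0.08 in the pairs, and 7 of 10 were above 0. In edgeR, which tested 10 of them, the median was 0.02, with 5 above and 5 below 0. The 7 sirtuins had a median of 0.01 (-0.00 with median-of-ratios and -0.05 with quantile scaling), and their pair medians went both ways. Writers and deacetylases thus differed in the sign of their medians in each of the 4 pairs. Members of a class are not replicates, and no test was made on these medians.

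Per kb of exons, Brd2 had the highest mean of the 36, 889.7 units over the 8 libraries, but its range (740 to 1070) overlapped those of Hdac2 and Kat2a (597 to 1081). Hdac2 and Hdac1 led the deacetylases with means of 841 and 763, followed by Hdac3 at 588 and Hdac7 at 514. The ranges of Hdac2 (759 to 960) and Hdac1 (661 to 836) overlapped, so their order is within the spread. Kat2a (839) and Hat1 (724) led the writers, with overlapping ranges, while Ep300 had 154 and Crebbp 63.8. Sirt6 and Sirt1 led the sirtuins with means of 204 and 202 and overlapping ranges, below the leaders of the other classes. Both means were above those of Ep300 and Crebbp, but their ranges overlapped that of Ep300. Hdac11 had 45.8.

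**Figure D3:**
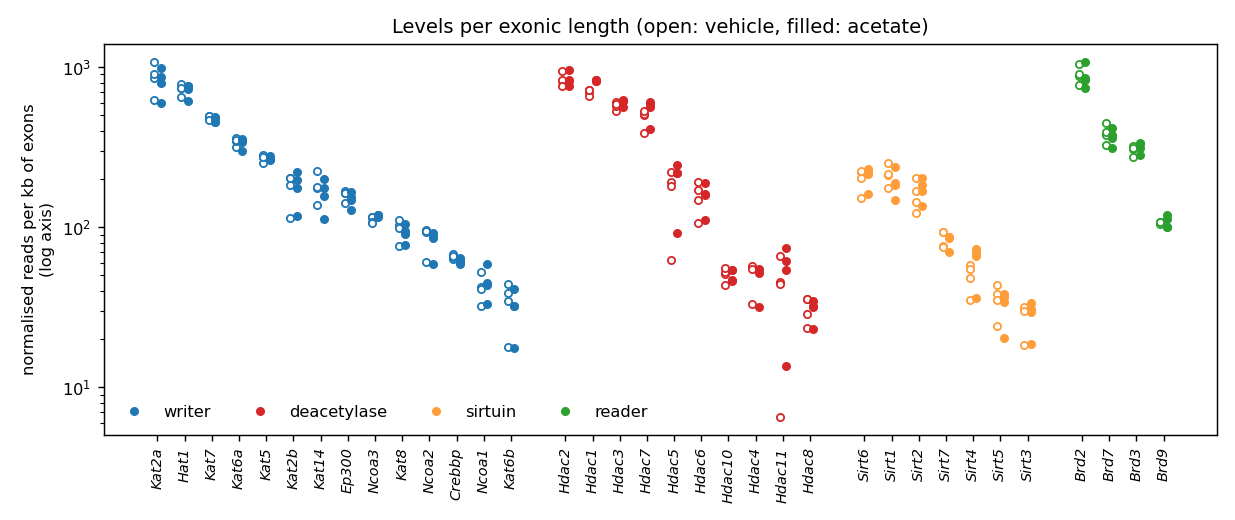
Normalised reads per kb of merged exons (log axis) for 35 genes in each library, open for vehicle and filled for acetate, ordered by mean within each class. The levels span from Hdac11 in replicate 1 (6.55 in vehicle) to Kat2a and Brd2 above 1000, and only the Hdac1 points of vehicle and acetate lie clearly apart.

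Experiments differed from each other far more than treatments did. Replicate number held over 50% of the sum of squares for 31 of the 36 genes, with a median of 90.6%, and treatment had a median of 4.09%; over all genes the medians were 81.9% and 3.70%. Replicate 1 was lowest for 21 of the 36 and highest for 7, and replicate 4 was highest for 15 and lowest for 10. Hdac11 ranged most between replicate numbers, by 2.86 on the log2 scale, followed by Hdac5 (1.61) and Kat6b (1.27). Kat2a, Kat7, Kat14, Hdac2, Sirt1, Brd2 and Brd7 had the opposite order, with replicate 1 highest and replicate 4 lowest. Hdac1 and Ncoa3 were the most even, with ranges of 0.08 and 0.07. The labels give no passage, density or date, and the part of these in the differences between replicate numbers was not tested.

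**Figure D4:**
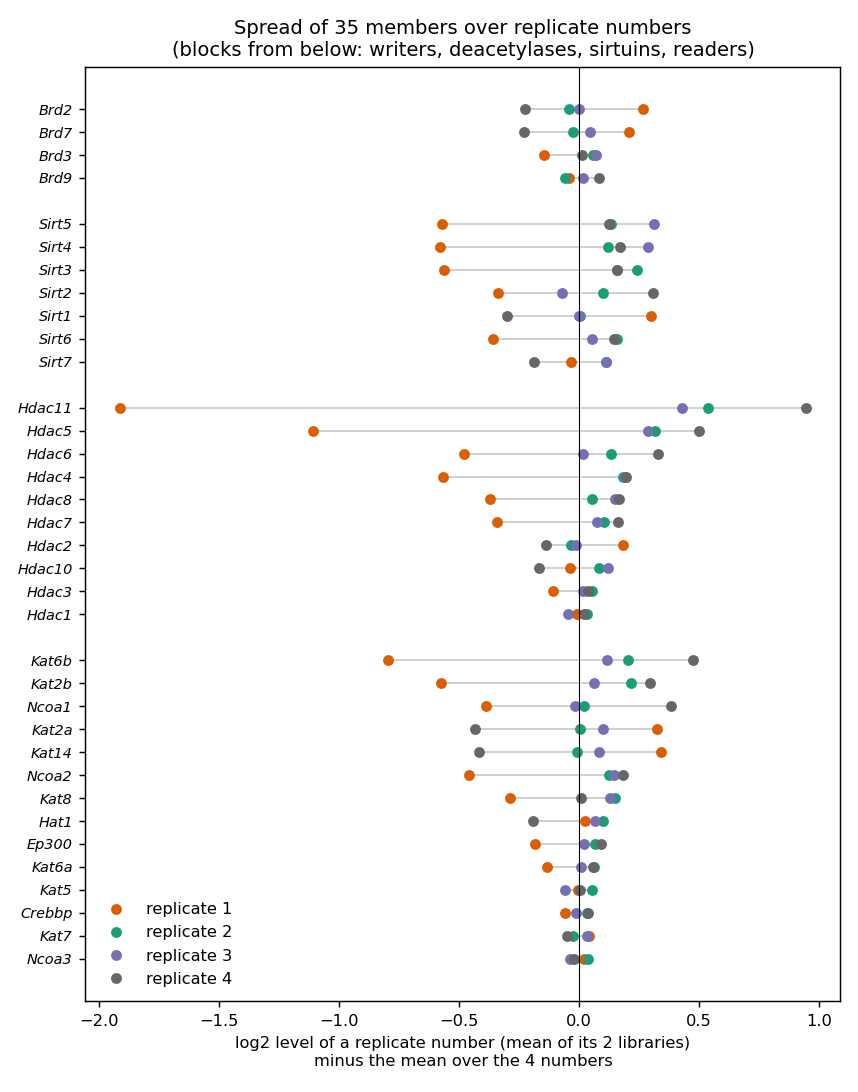
Level of each replicate number (mean log2 of its 2 libraries, minus the mean over the 4 numbers; x axis) for 35 genes, in blocks for writers, deacetylases, sirtuins and readers from below. Replicate 1 is far to the left for Hdac11, Hdac5 and Kat6b and to the right for Kat2a, Kat14, Sirt1 and Brd2, while the points of Hdac1 lie close together.

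Partner genes were read from lists of complex subunits and related enzymes. Of 55 subunits of acetyltransferase complexes, 8 passed (14.5%), all of them lower, beside 4% lower among genes with a mean of at least 10 units. That level was reached by 54 of the 55, and 2.65% of all genes were called lower. The median log2 change of the 55 was -0.05. Their calls numbered 8, 3, 1 and 3 without replicates 1 to 4, 14 in edgeR and 0 without the block, so the share depends on the fit. Brpf3, a scaffold of the Kat6 and Kat7 complexes, fell from 953 ± 149 to 794 ± 107 normalised reads (SD, n = 4; log2 change -0.26, blocked limma adjusted p 0.00426). Hcfc1, a chromatin adaptor of the Kat8 complex, and Zzz3, of ATAC, fell by 0.15 and 0.17 on the log2 scale (adjusted p 0.00628 and 0.00742). Without replicate 3 neither passed (0.0612 and 0.0842), nor did Zzz3 without replicate 4 (0.0511), whereas Brpf3 passed with any pair left out. None of the 3 is a catalytic subunit.

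Of 44 partners of the deacetylases, 5 rose and 3 fell, or 18.2% in all, beside 12.9% of genes with a mean of at least 10 units, which 43 of the 44 reached. Mef2c, a transcription factor held in check by class IIa deacetylases, had 26.7, 64.3, 53.3 and 73.7 normalised reads in vehicle libraries 1 to 4 and 37.7, 121, 109 and 130.1 in the acetate libraries. Each acetate library was above its partner, and the log2 change was 0.81 with an SE of 0.13 (blocked limma, adjusted p 0.00295, and 0.0510 without replicate 4). Its relative Mef2d, named after its values were seen, also rose (0.14, adjusted p 0.0180). Rcor2, a CoREST scaffold that joins Hdac1 to the demethylase Kdm1a, rose from 612 ± 81.5 to 791 ± 95.9 (log2 change 0.37, adjusted p 7.61e-04). Zmym3, also found with CoREST, rose by 0.21 (adjusted p 0.00568), as did Kdm1a itself, named after its values were seen (0.12, adjusted p 0.0373). Rcor3, another CoREST scaffold, fell (-0.15, adjusted p 0.0496). Mbd3, a core subunit of NuRD, and Ncor1, the scaffold that holds Hdac3, fell by 0.15 and 0.12 on the log2 scale (adjusted p 0.0135 and 0.0150). Of these 8 genes only Rcor2 passed with each pair left out; Zmym3 was lost without replicate 2 (0.0504), and Kdm1a, Rcor3, Mef2d, Mbd3 and Ncor1 without 2 or more of the pairs in turn (0.0539 to 0.225). With median-of-ratios scaling Kdm1a did not pass (0.0873).

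Of 32 other readers, 3 passed (9.38%), a share below the 12.9% of genes with a mean of at least 10 units. Baz2a and Smarca2 rose by 0.14 and 0.15, and Pbrm1, the bromodomain subunit of the SWI/SNF complex that also holds Brd7, fell by 0.11 on the log2 scale. Of 11 other acetyltransferases, Naa10, of the amino-terminal acetylating enzyme, and Nat10, which acetylates RNA, fell by 0.18 and 0.22. Among 12 enzymes of NAD supply and use, Nmnat2, which makes NAD, and Cd38, which breaks it down, rose by 0.37 and 0.29 (adjusted p 0.00193 and 0.0488). Nmnat2 passed with each pair left out, and the others named here did not (adjusted p up to 0.220 for Cd38). The 2 calls in each of these last lists are 18.2% and 16.7% of few genes, and nothing is read from them. In all, 23 of these partner genes passed with the block and 0 without it, and 18, 7, 5 and 7 without replicates 1 to 4.

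**Figure D5:**
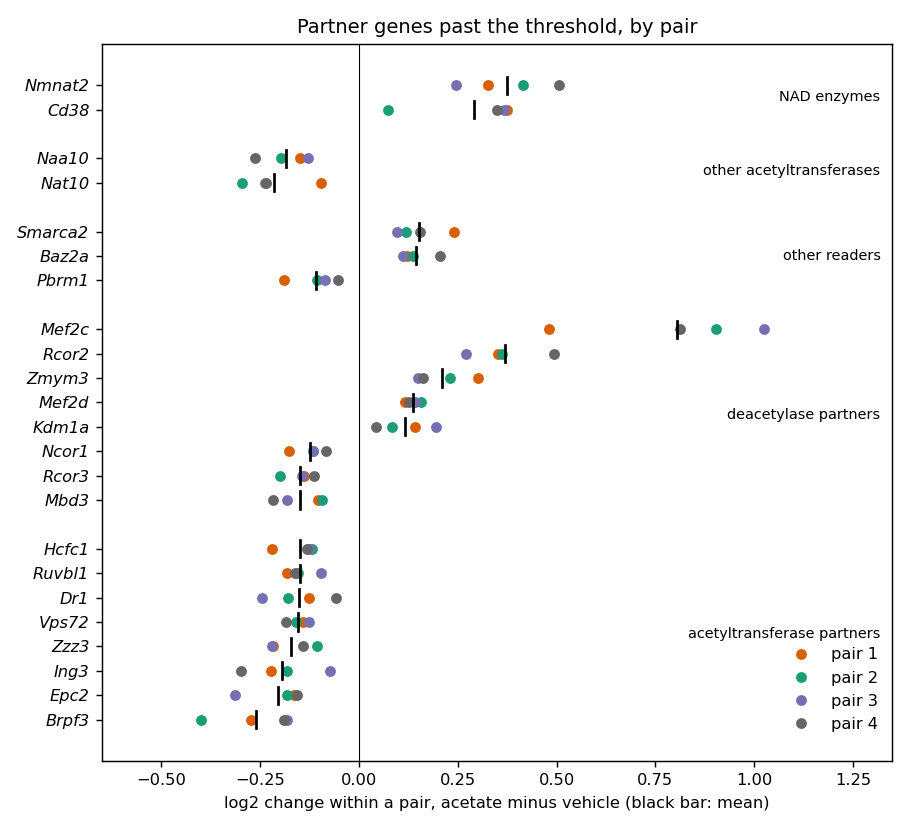
Log2 change within each pair (acetate minus vehicle, x axis) for the 23 partner genes past the threshold, coloured by pair, with a black bar at the mean. Each gene has all 4 points on one side of 0, the 8 subunits of acetyltransferase complexes to the left, and Mef2c, at 0.81, is farthest to the right.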

How the data were processed

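Stranded mRNA libraries of 8 samples of 4T1 cells were sequenced. Alignment to the mouse transcriptome (GRCm38) and quantification of genes were done by the authors with STAR; the submitters' processing notes also name HTSeq, and versions and the use of strand are not given in the sources used here. What was deposited is a signal per gene, counts that the authors scaled to the library total, after they kept genes expressed in enough of the samples (each of the 20189 genes has a value above 0 in at least 4 libraries). Every library sums to 20000000, and 100% of the values in each library were whole multiples of 1 read (within 0.05 of a read). Count tests on these recovered reads were alternatives only. A read of vehicle replicate 3 equals 1.0053 units, so edgeR was also run without replicate 3, an alternative chosen after seeing the data.

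Values were tested as log2(value + 1) in limma 3.58.1 (R 4.3.3; eBayes with a trend, two-sided) with treatment and replicate number, over all 20189 genes, with Benjamini-Hochberg adjustment. Libraries of one number carry a common code in the labels. Deviations of such pairs from their group mean correlated at 0.78, 0.23, 0.17 and 0.63 across genes in replicates 1 to 4. Libraries of different numbers were not compared in this way, so the pairing rests on the numbers and codes of the labels. The study's own gene ranking was unpaired. The study counts the 4 libraries of a group as independent experiments. Alternatives were a fit without the block, pseudocounts of 0.1 and 5, a filter at a mean of 10 units, median-of-ratios and quantile scaling, edgeR 4.0.16 and DESeq2 1.42.0 with the block, and each pair left out. The fit was also run on simulated data drawn with the same change in each pair, and nothing about the calls here is read from that run.

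Symbols, gene spans and exons came from GENCODE M21 (the same build), with RefSeq synonyms for 1 partner gene. Values in all libraries are given for genes past the threshold, the 3 largest changes that missed it among genes with a mean of at least 10 units, and genes whose groups did not overlap; from each partner list, up to 3 genes per direction with the smallest p are named. Members, lists and motifs were chosen with earlier results of these data known.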

Additional observations from a re-analysis of the deposited data

Results flagged for a closer look

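In 72 groups of 4 libraries (36 genes in both groups), 9 had a library far from the other 3, where chance gives 3.6 (1 group in 20). Each value here is the gap to the nearest library as a share of the range of the group. In 6 of the 9 the library was the lowest and belonged to replicate 1: Ncoa2 in vehicle (946 units beside 1453 to 1508, gap 0.902), Hdac3 in acetate (2275 beside 2490.2 to 2513, gap 0.905), Hdac4 in vehicle (522 beside 867 to 908, gap 0.895) and in acetate (501 beside 822 to 865, gap 0.881), Hdac5 in acetate (807 beside 1915 to 2135, gap 0.834) and Sirt3 in vehicle (109.9 beside 179 to 189, gap 0.871). The other 3 were Kat5, highest in acetate replicate 2 (975 beside 927 to 933, gap 0.865), Sirt7, lowest in acetate replicate 4 (362 beside 443 to 447, gap 0.952), and Hdac9, with 2.05 units in vehicle replicate 4 and 0 in the other 3 vehicle libraries (gap 1.00).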

How the results depend on the processing

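The replicate block decided the calls: without it 0 genes passed in limma, so 0 members rose, 0 fell and 0 partner genes were called, with 353 genes at an unadjusted p under 0.05. With the block, 1744 genes were called, and 1126 in DESeq2. Members that fell numbered 1, and 2 with a pseudocount of 5, 3 with the filter, 3 with median-of-ratios scaling, 5 in edgeR and 3 in edgeR without replicate 3; writers called numbered 0, and 1, 2, 2, 3 and 2 in the same order. In edgeR 2 sirtuins and 1 reader were called. The median log2 change of writers was -0.082 with median-of-ratios scaling, -0.079 in edgeR and -0.0822 in DESeq2, and that of readers was -0.0411 in edgeR without replicate 3. With each pair left out of limma in turn, calls ranged from 409 to 1662 for all genes and 1 to 5 for members that rose. They were 0 or 1 for members that fell, 1 to 4 for deacetylases and 0 to 2 for sirtuins. Writers had 0 calls in these fits, and partner genes 5 to 18. In edgeR without replicate 3, members that fell numbered 3, writers 2 and partner genes 21. The median of writers ranged from -0.067 to -0.0466 in limma. That of readers ranged from -0.0349 to -0.0006, and was -0.0411 in edgeR without replicate 3. Fewer libraries enter these fits; the cause of the other differences was not tested.

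Of the values of the 36 genes under the alternatives, 404 kept direction and side of the threshold, 19 lost the call, 13 gained it and 29 reversed, all from genes whose reported log2 change lay between -0.0215 and 0.0151. With median-of-ratios scaling the reversed log2 changes were -0.0041 for Kat2b, -0.0125 for Hdac2, -0.0069 for Hdac6, -0.0043 for Sirt3 and -0.005 for Brd9. With quantile scaling they were -0.0013 for Hdac2 and -0.0511 for Sirt3. In edgeR they were -0.0094 for Hdac2, -0.01 for Hdac6 and -6e-04 for Brd9, and in DESeq2 -0.0031 for Kat2b, -0.0126 for Hdac2, -0.0102 for Hdac6, -0.0018 for Sirt3 and -0.0046 for Brd9. Without replicate 1 they were -0.0028 for Hdac6 and 0.0215 for Hdac10, without replicate 2 -0.0148 for Sirt3, without replicate 3 -0.0164 for Hdac6, 0.0423 for Hdac8 and -0.017 for Brd9, and without replicate 4 -0.0188 for Kat2b, 0.0016 for Hat1, 0.0289 for Hdac8 and -0.0302 for Brd9. In edgeR without replicate 3 they were -0.0137 for Hdac2, -0.038 for Hdac6, 0.019 for Hdac8 and -0.0293 for Brd9. With each pair left out, these genes ranged from -0.0188 to 0.0409 (Kat2b), -0.0419 to 0.0016 (Hat1), -0.0164 to 0.0427 (Hdac6), -0.1019 to 0.0423 (Hdac8), -0.0393 to 0.0215 (Hdac10), -0.0148 to 0.055 (Sirt3) and -0.0302 to 0.0592 (Brd9).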
